A study of Eriocheir sinensis with 6 samples.

Results

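Broad accessible domains are long stretches of open chromatin that the walking-leg muscle of 3 molting Chinese mitten crabs (*Eriocheir sinensis*) had in common. They were selected on measured values: the ATAC-seq peak intervals of the 3 libraries were merged, and a merged region was kept when it lay on one of the sequences of the genome assembly named with CM and was touched in every library by 1 interval of at least 1500 bp. The rule found 99 domains among the 22674 regions on CM sequences that all 3 libraries shared (0.437%), and among 68059 merged regions in all. Width and sharing are therefore the choice itself and are given here as a description, and so are the summits and the fold enrichment, which come from the same reads.

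The study collected muscle from healthy juvenile male crabs of the molt period, 1 crab per replicate, labelled Mu_E_1, Mu_E_2 and Mu_E_3, with 1 ATAC-seq and 1 RNA-seq library each. All 3 crabs are labelled WT and untreated, and no other group belongs to these data, so the domains were set against the other 22575 shared regions on CM sequences within the same libraries. The labels give the molt stage as D in the design text and as E in the sample titles. Whole leg muscle holds more than muscle fibres, and a value of the tissue cannot tell fewer cells of a type from less RNA per cell. The gene table names genes by identifier without a description, so the tissue was not checked against muscle markers and no role is given to a gene.

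In ATAC-seq, the Tn5 transposase cuts DNA that nucleosomes do not cover and leaves sequencing adapters there. Accessible DNA usually marks promoters and enhancers, and most such sites are short. A long accessible stretch often holds several such sites side by side, and the peak caller MACS2 then reports 1 interval with several summits, the points where the signal is locally highest. In many animals, long accessible or active stretches are found at the start sites of strongly used genes and at clusters of enhancers.

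The 3 libraries differed in how many broad intervals they held. Mu_E_1 had 650 intervals of at least 1500 bp among 52473, Mu_E_2 had 354 among 44610 and Mu_E_3 had 782 among 49831. On CM sequences the numbers were 356, 197 and 506, so the 99 domains made up the largest share of the broad intervals in Mu_E_2, the library with the fewest. Mu_E_2 thus set most of the limit: 241 regions met the rule without Mu_E_2, 137 without Mu_E_1 and 109 without Mu_E_3. By the paper's counts, Mu_E_2 also had the fewest ATAC-seq reads mapped outside the mitochondrial genome. The read depth of the ATAC-seq libraries was not analysed here, and its part in these numbers was not tested.

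The domains were spread over 47 of the 72 CM sequences that held a shared region, with at most 5 on a sequence, a number reached on CM024135.1, CM024157.1 and CM024164.1. The merged domains were 1535 to 2578 bp long with a median of 1821 bp, and together they covered 183.09 kb. The median distance from a domain to the next on its sequence was 1.61 Mb, and the smallest was 8115 bp. Only 9 domains had another within 100 kb. Most domains therefore stood apart from each other. Within 20 kb of a domain there was a median of 2 other shared regions, as for the other shared regions (mean 2.68 for domains and 2.40 for the others), and 10 domains had none.

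Interval widths had medians of 1712 bp in Mu_E_1, 1699 bp in Mu_E_2 and 1728 bp in Mu_E_3, against 450, 419 and 495 bp for the other shared regions, where the interval with the strongest summit stands for a region. Domain intervals ranged over 1508 to 2346 bp in Mu_E_1, 1503 to 2496 bp in Mu_E_2 and 1510 to 2338 bp in Mu_E_3. Within a domain the narrowest and widest library differed by a median of 5.69% and at most 31.4%, and the stretch common to all 3 libraries had a median of 1618 bp and was never under 1392 bp. The edges shifted little, by a median of 58 bp on the left and 66 bp on the right. The rank order of widths across the 99 domains was closest between Mu_E_1 and Mu_E_3 (Spearman's rho 0.84), and lower between Mu_E_1 and Mu_E_2 (0.59) and between Mu_E_2 and Mu_E_3 (0.61). These correlations describe the same 99 regions in 3 libraries and carry no p-value.

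**Figure D1:**
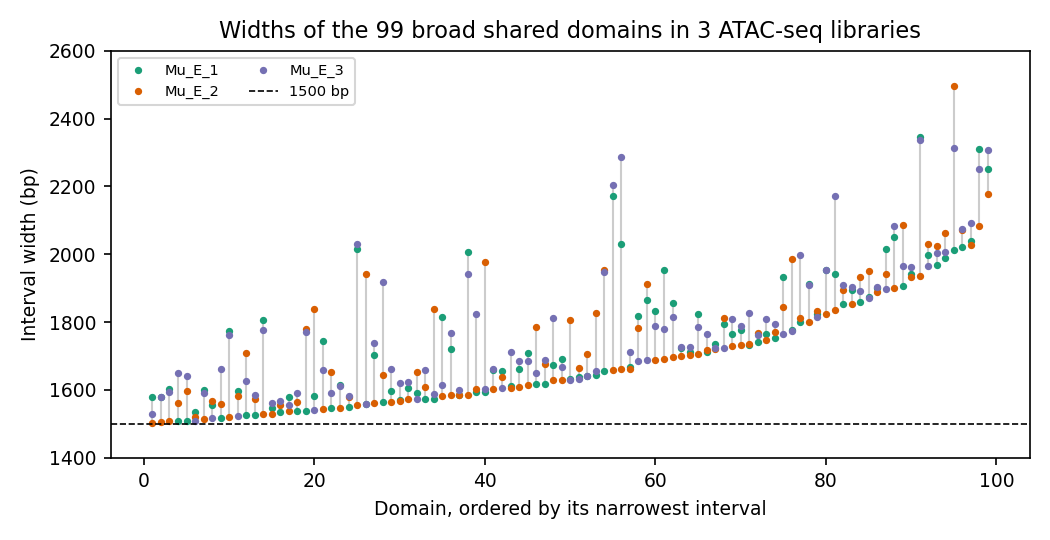
Interval width in bp (vertical axis) of each of the 99 domains in Mu_E_1, Mu_E_2 and Mu_E_3 (coloured dots), with domains ordered by their narrowest interval and the 1500 bp limit dashed. Most domains lie below 2000 bp, and a few have 1 library far from the other two, up to 2496 bp in Mu_E_2.

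The members closest to the limit are set beside the regions that just missed it, as a description. The narrowest member, on CM024100.1 from 12861788 to 12863375, was 1578, 1503 and 1529 bp wide in Mu_E_1, Mu_E_2 and Mu_E_3, and the next members had a narrowest interval of 1505, 1508, 1508 and 1510 bp. The nearest regions outside had a narrowest interval of 1498, 1493, 1489, 1488 and 1488 bp. The 5 members had 2 to 5 summits and a fold enrichment of 4.95 to 12.7 over the libraries, and the 5 excluded regions had 2 to 5 summits and 4.88 to 10.6. Among the members, 3 were at a start in every library, near evm.TU.CM024143.1.337 (29.9, 20.2 and 6.53 FPKM, where FPKM stands for fragments scaled by exon length and by a size of the library), evm.TU.CM024164.1.235 (26.4, 46.9 and 22.9 FPKM) and evm.TU.CM024100.1.237 (224, 239 and 290 FPKM). In Mu_E_1, with minus for upstream, the other members lay at -7560 bp from the start of evm.TU.CM024100.1.290, a gene at 116, 147 and 50.6 FPKM, and at -6338 bp from that of evm.TU.CM024150.1.121, at 1.33, 1.95 and 1.64 FPKM in Mu_E_1, Mu_E_2 and Mu_E_3. Both sides of the limit thus held regions at starts and away from them. Of the excluded regions, the one on CM024097.1 lay 17 bp before the start of evm.TU.CM024097.1.306, a gene at 745, 746 and 439 FPKM in Mu_E_1, Mu_E_2 and Mu_E_3. Another, on CM024134.1, lay 214 bp before the start of evm.TU.CM024134.1.104, at 289, 224 and 116 FPKM. The other excluded regions lay 13058 bp from the start of evm.TU.CM024136.1.197 (26.6, 29.1 and 14.0 FPKM), 26317 bp from that of evm.TU.CM024135.1.306 (0.216, 0 and 0 FPKM) and 5920 bp from that of evm.TU.CM024153.1.49 (0.133, 0.977 and 0.339 FPKM). The limit of 1500 bp thus falls in a continuous range of widths.

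Every domain held several summits in every library. The mean was 4.32 summits per interval in Mu_E_1, 4.35 in Mu_E_2 and 4.43 in Mu_E_3 (4.37 ± 0.0574, SD, n = 3), against 1.44, 1.36 and 1.54 for the other shared regions (1.45 ± 0.0938). No domain had a lone summit in any library, 59 had at least 4 in all of them, and the highest number was 9. Per kilobase, however, the domains had no more summits than the other regions, with 2.47, 2.51 and 2.50 per kb against 2.69, 2.73 and 2.63 per kb. The higher number per domain thus went with the longer interval.

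The summits sat at recurring places. Neighbouring summits of a domain were a median of 327 bp apart in Mu_E_1, 343 bp in Mu_E_2 and 326.5 bp in Mu_E_3, and the closest pair was 105, 71 and 110 bp apart in those libraries. Of the summits in Mu_E_1, 307 of 428 (71.7%) had a counterpart within 50 bp in both other libraries, as had 300 of 431 (69.6%) in Mu_E_2 and 307 of 439 (69.9%) in Mu_E_3. At least 1 such recurrent summit was present in 97 of the 99 domains. The number of summits was less steady than their place, since only 33 domains had the same number in all 3 libraries.

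Which summit was the strongest was settled in most domains and not in all. The position of the strongest summit spanned a median of 25 bp over the libraries and lay within 50 bp in 59 domains, but it moved by more than 500 bp in 22 domains and by up to 1280 bp. Within a domain the strongest summit exceeded the weakest by a median of 2.37-fold in Mu_E_1, 2.28-fold in Mu_E_2 and 2.48-fold in Mu_E_3. In those 22 domains the libraries differed in which of the summits was the highest. Smaller shifts could also be a change of summit, as in the domain near evm.TU.CM024153.1.13, where the position spanned 443 bp.

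The 10 widest domains, ranked by their narrowest library, show this structure. On CM024152.1 from 3671271 to 3673577, the interval was 2252, 2178 and 2307 bp wide with 6, 5 and 6 summits in Mu_E_1, Mu_E_2 and Mu_E_3. The domain on CM024129.1 from 874875 to 877184 was 2310, 2084 and 2250 bp wide with 8, 7 and 8 summits. On CM024112.1, from 8629694 to 8631789, widths of 2039, 2028 and 2091 bp came with 8, 6 and 7 summits. In these domains no library had fewer than 5 summits. The domain on CM024151.1 from 7100977 to 7103063 had 6 summits in each library and widths of 2022, 2071 and 2076 bp. Steadiest of the 10 in width was the domain on CM024098.1 from 5537498 to 5539499, with 1942, 1933 and 1962 bp. It had 4 summits in each library, but the position of its strongest summit spanned 681 bp over the libraries. Least steady was the domain on CM024134.1 from 4415706 to 4418283, with 5, 9 and 6 summits and widths of 2013, 2496 and 2314 bp, and here Mu_E_2 was the widest library. The most summits in 1 domain were found on CM024157.1 from 16408917 to 16411278, with 9, 7 and 9 summits over 2346, 1935 and 2338 bp, and here Mu_E_2 was the narrowest.

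**Figure D2:**
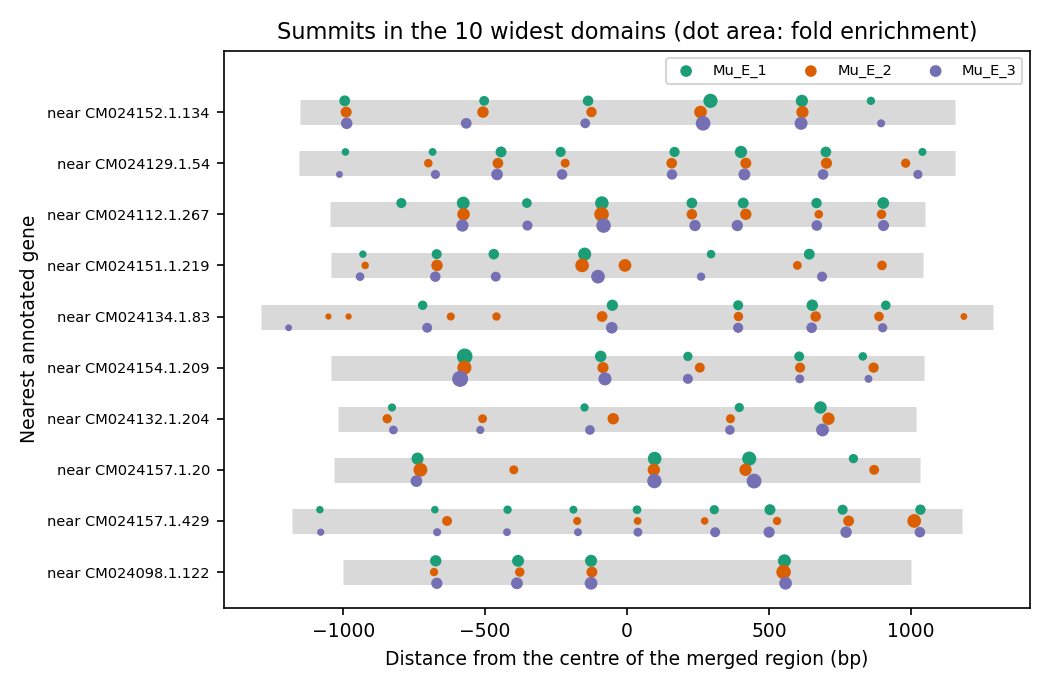
Summits of the 10 widest domains as distance in bp from the centre of the merged region (grey bar), in Mu_E_1 (top row of dots in each bar), Mu_E_2 (middle) and Mu_E_3 (bottom), with dot area in proportion to fold enrichment and domains named by the nearest annotated gene. Many summits stand above each other in the 3 libraries, as in the domain near CM024098.1.122, while the domain near CM024134.1.83 has 9 summits in Mu_E_2 against 5 in Mu_E_1 and 6 in Mu_E_3.

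Fold enrichment, the signal at a summit relative to the local background as MACS2 computed it, was moderate in the domains. At the strongest summit it had medians of 7.01 in Mu_E_1, 7.38 in Mu_E_2 and 7.20 in Mu_E_3, against 4.92, 5.18 and 5.15 for the other shared regions, a ratio of 1.42 ± 0.0155 (SD, n = 3). The highest domain values were 14.4, 17.9 and 14.2, and the highest among the far more numerous other regions were 46.8, 47.7 and 47.0. Across the domains, width and fold enrichment had a Spearman's rho of -0.05 in Mu_E_1, -0.08 in Mu_E_2 and -0.00 in Mu_E_3. The −log10 q-value at the strongest summit had medians of 95.5, 77.8 and 122.7 in domains, against 14.6, 12.8 and 17.1.

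The domain with the highest fold enrichment lay on CM024118.1 from 16727357 to 16729022, with 14.4, 17.9 and 14.2. Its nearest annotated start belonged to evm.TU.CM024118.1.440, 38768 bp away, a gene at 65.1, 83.0 and 51.5 FPKM in Mu_E_1, Mu_E_2 and Mu_E_3. Lowest in mean fold enrichment was the domain on CM024123.1 from 4528422 to 4530592, with 3.23, 3.59 and 3.71 but 6, 6 and 7 summits. Broad domains thus covered a wide range of signal.

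Domains lay at gene starts more often than the other shared regions as a whole. With the promoter set at 2 kb on each side of an annotated start, the strongest summit was in a promoter in 39 domains in Mu_E_1, 40 in Mu_E_2 and 39 in Mu_E_3. These were 39.4%, 40.4% and 39.4% of the domains, against 25.3%, 25.3% and 25.4% of the other shared regions. The difference was 14.4 ± 0.597 percentage points (SD, n = 3). The SD measures only the spread between libraries over the same regions, and no p-value is given, since an exact sign-flip test over 3 crabs cannot reach a two-sided p below 0.25. Without Mu_E_1, Mu_E_2 or Mu_E_3 the difference ranged from 10.13 to 16.74 points. The median distance to the nearest start was 4673, 4681 and 4688 bp for domains, against 12913, 12911 and 12912 bp. Counting any touch of a promoter gave 43.4% of domains and 26.5% of the others. A longer region meets this count more easily, and the domains were chosen by width.

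**Figure D3:**
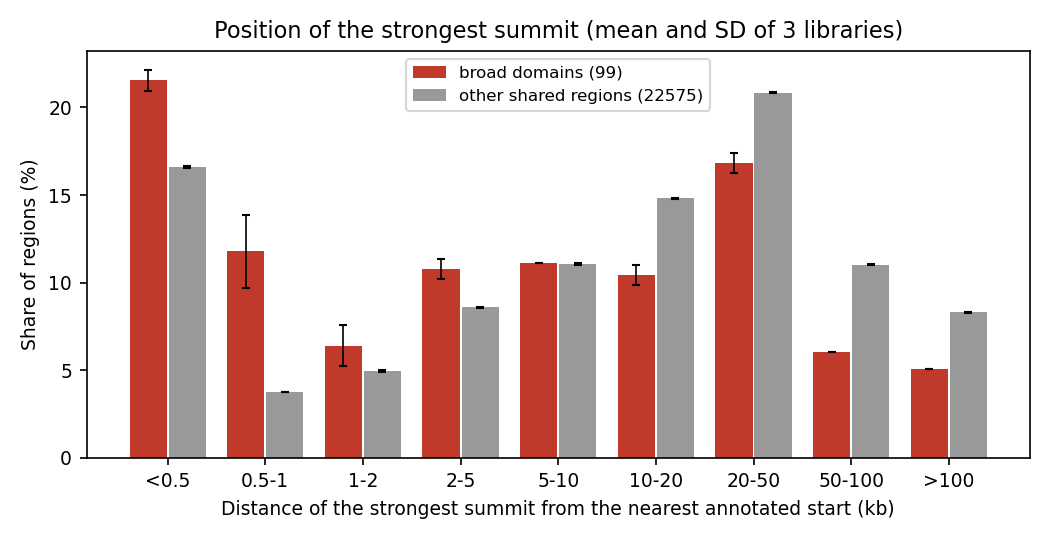
Share of regions (%) by the distance in kb of the strongest summit from the nearest annotated start, for the 99 domains (red, left bars) and the 22575 other shared regions (grey, right bars), as mean and SD of 3 libraries. The domain bars are higher within 1 kb of a start and lower beyond 10 kb.

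Classed by its strongest summit, a domain mostly kept its place across crabs. In all libraries 39 domains were at a start, 16 in a gene body and 43 outside genes, and 1 changed class. That one, near evm.TU.CM024153.1.13, had its strongest summit 2039, 1637 and 2080 bp from the start. Of the 39 domains at starts, 33 contained the start itself, and the median distance of the strongest summit was 340 bp. In 23 of the 39 the strongest summit was upstream and in 16 downstream, so across these domains it was not confined to 1 side of the start. In all, 66 domains held no annotated start, 29 held 1, 3 held 2 and 1 held 3. Starts on both strands were found within 2 domains, one of them on CM024097.1 from 3263865 to 3265462, which held the 3 starts.

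The 43 domains with the strongest summit outside genes had their nearest start a median of 23780 bp away and as far as 491705 bp. Some of them still touched a gene with another part, such as the domain nearest to evm.TU.CM024165.1.347. Of the 43, 33 were beyond 10 kb and 5 beyond 100 kb. The domain was upstream of the nearest gene in 33 of these 43 (76.7%), against 63.8%, 63.9% and 63.8% of the other shared regions outside genes in Mu_E_1, Mu_E_2 and Mu_E_3. Fold enrichment had medians of 7.34, 8.09 and 7.69 at starts, 7.04, 7.59 and 7.68 in gene bodies and 6.64, 7.14 and 6.87 outside genes. Domains outside genes thus had the lowest median in each library. Their widths, with medians of 1669, 1706 and 1738 bp against 1720, 1705 and 1686 bp at starts, had no common direction over the libraries.

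The genes nearest to domains carried more RNA than those nearest to other shared regions. The 99 domains had 96 nearest annotated genes, with median levels of 7.51 FPKM in Mu_E_1, 6.56 FPKM in Mu_E_2 and 6.34 FPKM in Mu_E_3. The 9449 genes nearest to the other shared regions had medians of 2.86, 2.47 and 2.60 FPKM, and all 21314 annotated genes had 0.988, 0.811 and 0.934 FPKM. On the log2(FPKM + 1) scale the medians of domain genes and other genes differed by 1.10 ± 0.0607 (SD, n = 3), with 1.14, 1.12 and 1.03 in the 3 libraries. At least 1 FPKM in every library was reached by 69 of 96 domain genes (71.9%), against 55.1% of genes near other shared regions and 40.8% of annotated genes. A value of 0 in all libraries was listed for 10 domain genes (10.4%), against 14.8% and 24.1%. High levels, with a mean of at least 100 FPKM, were found in 11 domain genes (11.5%), against 5.70% and 3.43%. The exon length by which FPKM is divided had a median of 1096 bp for domain genes and 1298 bp for genes near other shared regions, and its part in the difference was not tested.

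**Figure D4:**
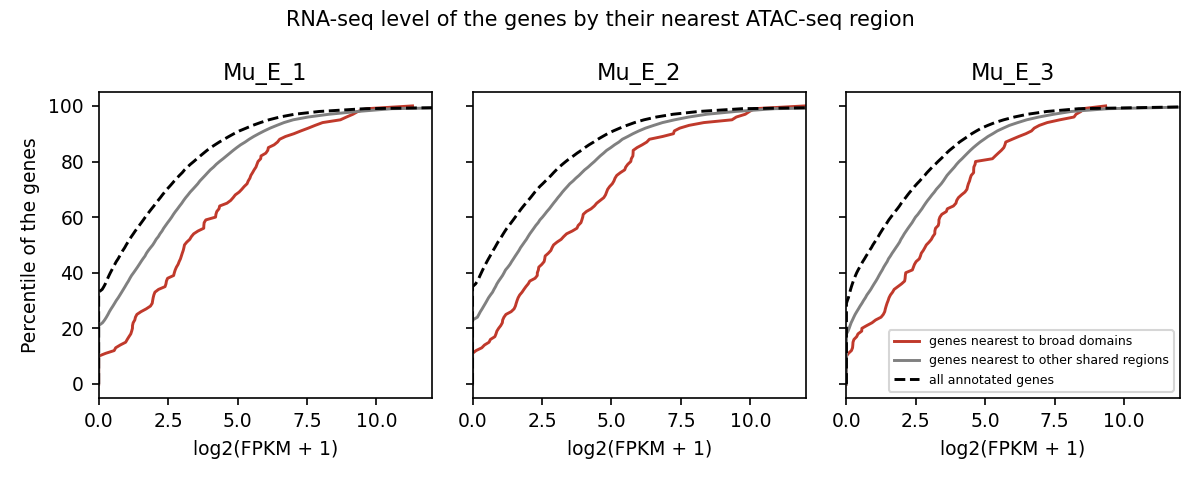
Percentile of genes (vertical axis) against log2(FPKM + 1) (horizontal axis) in Mu_E_1, Mu_E_2 and Mu_E_3, for the 96 genes nearest to domains (red), the 9449 nearest to other shared regions (grey) and all 21314 annotated genes (dashed). In each library the red line lies to the right of the grey line over most of its course, with domain medians of 7.51, 6.56 and 6.34 FPKM against 2.86, 2.47 and 2.60 FPKM.

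The nearest gene was at a higher level when the domain lay within 2 kb of its start. The same held for the other shared regions. The 40 genes with the strongest summit of a domain within 2 kb of their start had medians of 18.6, 18.2 and 9.17 FPKM, against 5.19, 4.75 and 5.19 FPKM for 5019 genes with another shared region there. Of these 40 genes, 36 (90%) had at least 1 FPKM in every library, against 68.9% of the 5019. A value of 0 in all libraries was listed for 0 of the 40, against 4.66% of the 5019, a share at which few of 40 would be expected. The difference was smaller in Mu_E_3, at 0.72 on the log2(FPKM + 1) scale, than in Mu_E_1 (1.66) and Mu_E_2 (1.73). The 56 genes whose nearest domain was beyond 2 kb had medians of 4.42, 3.88 and 3.36 FPKM, against 0.894, 0.742 and 0.727 FPKM for 4449 such genes near other shared regions. Across the 99 domains, fold enrichment and the FPKM of the nearest gene had a Spearman's rho of 0.10, 0.14 and 0.10.

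How much RNA differed between the crabs depends on the scale. The deposited FPKM values were divided by a number that was 0.573, 0.514 and 1.43 times the fragments recovered for the library, so Mu_E_3 was lowest in 39 of the 69 domain genes of at least 1 FPKM on the authors' scale but in 10 on the scale of each library's own fragments. On the scale of own fragments, domain genes had median FPKM of 4.31, 3.37 and 9.08, against 1.64, 1.27 and 3.72 for genes near other shared regions. No direction between crabs is therefore given. Within a library the scales differ by 1 constant, so the order of the gene groups is the same on both by construction. The coefficient of variation among the crabs on the authors' scale had a median of 47.5% over these 69 genes, against 42.2% over 5210 genes near other shared regions.

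The 10 domain genes with the highest mean FPKM fell into those with a domain at their start and those with one farther off. At a start were evm.TU.CM024159.1.149, with 632, 684 and 182 FPKM, evm.TU.CM024100.1.237, with 224, 239 and 290 FPKM, and evm.TU.CM024097.1.117, with 220, 212 and 137 FPKM in Mu_E_1, Mu_E_2 and Mu_E_3. The strongest summit was 720, 3 and 71 bp from the start of these genes. Also within 2 kb were evm.TU.CM024158.1.429, with 145, 154 and 98.7 FPKM at 160 bp, and evm.TU.CM024166.1.46, with 401, 996 and 300 FPKM at 1894 bp. Just past the 2 kb limit, at 2111 bp, was the domain of evm.TU.CM024122.1.40, a gene with 467, 1054 and 350 FPKM. Fold enrichment was high at the domains of CM024122.1.40 (12.5 to 13.2) and of CM024166.1.46 and CM024100.1.237 (9.77 to 13.3). It was lower at the other domains of this paragraph. In Mu_E_1, Mu_E_2 and Mu_E_3 it was 5.37, 8.27 and 5.31 for CM024159.1.149 and 5.96, 7.01 and 5.67 for CM024097.1.117. For CM024158.1.429 it was 6.81, 6.96 and 6.56. High RNA near a domain thus did not always come with high fold enrichment.

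The highest level of all belonged to evm.TU.CM024108.1.207, with 2528, 4028 and 346 FPKM, from 8721, 13230 and 3280 fragments. Its start was 20160 bp from the domain on CM024108.1 from 8166819 to 8168547, which lay in the body of another gene, so the pairing rests on the nearest start alone. The same holds for evm.TU.CM024113.1.221, with 559, 635 and 643 FPKM and its start 9506 bp away. In contrast, evm.TU.CM024100.1.563, with 166, 152 and 115 FPKM, had the domain inside its own body, 4174 bp after its start. Distance to the nearest start does not show which gene, if any, a domain acts on.

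One gene model had 3 domains of its own. It joins the predictions evm.TU.CM024135.1.299 and evm.TU.CM024135.1.300 and runs on the plus strand of CM024135.1 from 12367335 to 12407129. Its level was 762, 887 and 52.7 FPKM in the 3 crabs in order of their numbers. These came from 14017, 15531 and 2659 fragments, and the gene was lowest in Mu_E_3 also on the scale of each library's own fragments (437, 456 and 75.4). Domain 1, from 12366454 to 12368578, contained the start, with 6 summits in each library and widths of 2052, 1901 and 2082 bp. Domain 2, from 12375494 to 12377696, was 2171, 1660 and 2203 bp wide, with its strongest summit 9047, 8983 and 9027 bp after the start. Domain 3, from 12383894 to 12385526, was 1616, 1548 and 1613 bp wide, and its strongest summit was 16766, 18037 and 16757 bp after the start. Broad accessible chromatin was thus found at the start and at 2 inner places of the same gene model. Fold enrichment at the start was 5.95, 8.83 and 6.82, with the lowest value in Mu_E_1. At domain 2 it was 6.36, 7.39 and 6.25, with the lowest in Mu_E_3, and at domain 3 it was 3.93, 4.17 and 3.94, so the library lowest in RNA had no fixed place in accessibility.

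The widest domains were not those with the most RNA nearby. Of the 10 widest, 4 were at a start. The nearest gene was at 67.4, 70.8 and 76.6 FPKM for evm.TU.CM024134.1.83 and at 87.0, 51.6 and 20.9 FPKM for evm.TU.CM024132.1.204, whose domains covered their starts. Low levels were found for evm.TU.CM024112.1.267, with 1.48, 1.33 and 1.44 FPKM and the summit 340 bp before the start, and for evm.TU.CM024154.1.209, with 1.62, 2.72 and 2.14 FPKM and the summit 82 bp before it in Mu_E_1. Both genes thus had a broad domain at the start and little RNA. Away from starts, evm.TU.CM024151.1.219 and evm.TU.CM024157.1.20 were listed at 0 in all 3 libraries, with the domains 5577 and 74953 bp upstream in Mu_E_1. The others were evm.TU.CM024098.1.122 at 42.3, 18.7 and 19.7 FPKM, evm.TU.CM024152.1.134 at 8.95, 7.83 and 1.63 FPKM, evm.TU.CM024129.1.54 at 5.76, 3.73 and 3.39 FPKM, and evm.TU.CM024157.1.429 at 4.21, 0.736 and 3.32 FPKM. In all, 11 domains were nearest to a gene listed at 0 in every library, all outside genes, among them both domains of evm.TU.CM024137.1.542.

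The contrast with the other shared regions came from the narrow ones. By the width of the narrowest interval, the strongest summit was in a promoter in 22.6% of 16306 regions under 0.5 kb, 31.7% of 5430 regions of 0.5 to 1 kb, 38.3% of 822 regions of 1 to 1.5 kb and 39.7% of the 99 domains (means of 3 libraries). Median fold enrichment was 4.57, 6.81, 7.56 and 7.20 in the same order, and summits per kb were 2.90, 2.42, 2.40 and 2.49. The median level of the nearest genes was 2.46 ± 0.153, 4.45 ± 0.699, 6.95 ± 1.80 and 6.80 ± 0.624 FPKM (SD, n = 3). Set against the class of 1 to 1.5 kb alone, a comparison added after the data were seen, the domains differed by 1.409 percentage points in promoter share and by 0.009057 ± 0.2814 in median log2(FPKM + 1), and the ratio of fold enrichment turned to 0.9522. Promoter share and the RNA level of the nearest genes were thus higher in each wider class up to 1 to 1.5 kb, and the domains were not shown to differ from that class. In RNA level the libraries disagreed, with 7.51, 6.56 and 6.34 FPKM for domains, against 8.27, 7.68 and 4.90 FPKM for the class below, so domains were higher in Mu_E_3 only. A further 17 shared regions had wide intervals in all libraries but more than 1 interval in at least 1 of them, and were in no class.

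**Figure D5:**
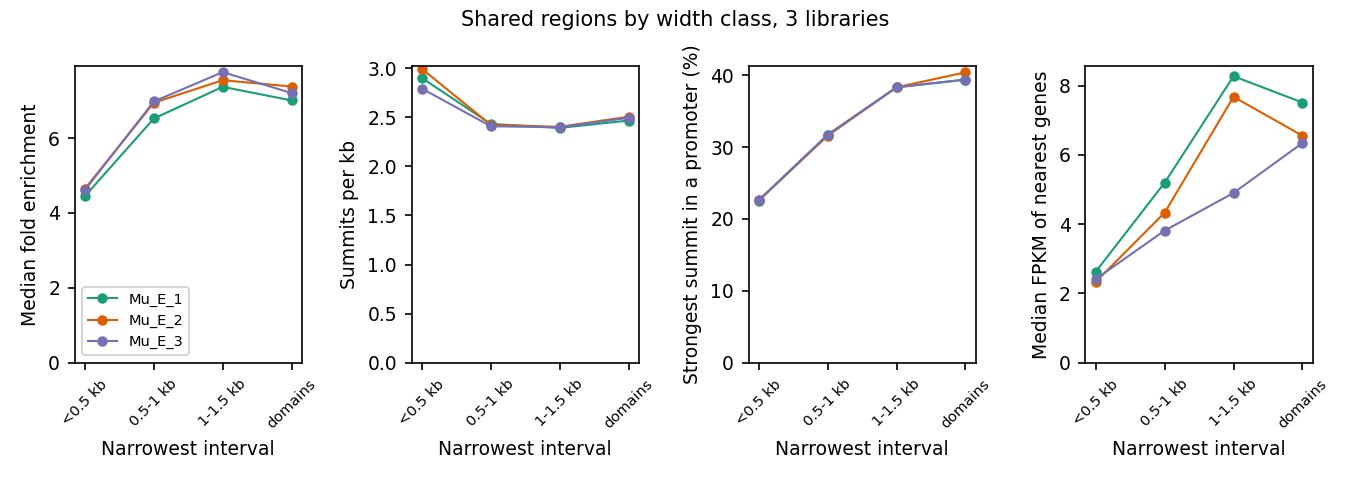
Median fold enrichment, summits per kb, promoter share (%) of the strongest summit and median FPKM of the nearest genes in 4 width classes of shared regions, from under 0.5 kb to the domains, with 1 line per library. Fold enrichment, promoter share and FPKM are lowest under 0.5 kb, and promoter share is 38.3% in the class of 1 to 1.5 kb and 39.7% in the domains.

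Because the files do not describe genes, the domain genes were matched by identifier to the gene lists that the study drew up for adjacent molt periods. These lists were chosen by the study partly on these libraries and from genes with an assigned accessible region that changed, so they are not independent evidence. Of the 96 domain genes, 11 (11.5%) were on any list, against 6.97% of genes near other shared regions and 4.24% of annotated genes. In the names of the lists the earlier period comes first, and the paper describes the change toward the later one. The list down-regulated in Mu_A vs. Mu_C (lower in inter-molt than in post-molt) was the longest, with 451 genes. It held 7 domain genes (7.29%), against 3.38% of genes near other shared regions and 2.12% of annotated genes. The list up-regulated in Mu_D vs. Mu_E (higher in molt than in pre-molt), with 327 genes, held 6 (6.25%), against 2.87% and 1.53%. On both lists were 3 domain genes: evm.TU.CM024108.1.207, evm.TU.CM024134.1.83 and evm.TU.CM024146.1.271. The last had 47.0, 38.0 and 14.5 FPKM. How many genes near other shared regions were on both lists was not counted, so the 3 are not read as an excess. The list down-regulated in Mu_E vs. Mu_A held 1 domain gene (1.04%, against 0.233% and 0.113%), evm.TU.CM024146.1.620, with 39.4, 34.8 and 20.4 FPKM. The other 5 lists, of 5 to 164 genes, held 0 domain genes, against 0.0318% to 1.25% of genes near other shared regions. At such shares few of 96 genes would be listed, so no direction is read from the 0. The periods other than the molt period were not analysed here.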

How the data were processed

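ATAC-seq and RNA-seq were measured in 3 muscle samples. The authors aligned ATAC-seq reads with BWA and ran MACS2 on every library separately; a shift for the transposase and the annotation version are not given in the sources used here. The deposited lists give each summit's score (not used further), its fold enrichment (a ratio to local background) and the −log10 p-value and −log10 q-value, and reach a q-value of 0.04997. The authors aligned RNA-seq reads with HISAT2 2.0.5 and counted with featureCounts 1.5.0-p3; the deposited values are FPKM. FPKM times gene length, over 1 constant per library, gave whole fragments in 100% of values (tolerance 0.05), in all 7088747, 7524721 and 7788537 in Mu_E_1, Mu_E_2 and Mu_E_3.

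With Python 3.11.15, numpy 2.4.6, pandas 2.3.3, scipy 1.17.1 and matplotlib 3.10.9, intervals overlapping by at least 1 bp were merged and the rule was applied, after it had been tested on simulated data. A domain was placed by its strongest summit, in a promoter, then a gene body, then outside. The nearest gene had the nearest of 21314 annotated starts; 7357 further genes, listed outside the annotation's evm series, were left out of the main values. Each gene counted once in a group. In comparisons of domains with other shared regions, a gene nearest to both kinds counted with the domains only. Across the width classes a gene could count in more than 1 class. The pseudocount was 1 FPKM. Groups came from the sample titles. No test was run: 1 condition is present, and the members and lists were chosen with earlier results of these data known. Named were the 10 widest domains, the 5 regions on each side of the limit, the 10 nearest genes highest in mean FPKM, genes with 3 or more domains and the 5 lowest genes of the widest domains; other genes and regions named, among them those of highest and lowest fold enrichment and those on the study's lists, were picked after their values were seen. Alternatives are in the closing section, and the comparisons with regions of like fold enrichment or of 1 to 1.5 kb were added after seeing the data. Positions count from 1 on the assembly the study used, and its sequence was not used here.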

Additional observations from a re-analysis of the deposited data

Results flagged for a closer look

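Sequences with names that do not begin with CM were outside the domain rule and the comparisons above, yet 88 regions on them were touched in each library by 1 interval of at least 1500 bp. They lay on 82 sequences, and 50 of them on sequences without a listed gene. This was 12.4 per 1000 shared regions there, against 4.37 per 1000 on CM sequences. In Mu_E_1, Mu_E_2 and Mu_E_3 they had a median fold enrichment of 5.64, 5.49 and 5.59, with 4.24, 4.10 and 4.17 summits per interval.

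Genes that the table lists outside the annotation's evm series were also left out of the comparisons, and 11 of these added genes had a start within 2 kb of a domain, 10 with the start inside the domain. The highest, at 19.0, 24.2 and 6.39 FPKM in Mu_E_1, Mu_E_2 and Mu_E_3, had its start in the domain on CM024103.1 from 13240807 to 13242542. The domain of highest fold enrichment held the start of an added gene at 3.49, 2.29 and 0.795 FPKM. Of regions whose strongest summit was outside annotated promoters, 16.8% ± 0.163 of domains had an added start within 2 kb of it, against 4.89% ± 0.00793 of other shared regions (SD, n = 3). The domain share rests on 10 domains in each library. The other shared regions were not split by width here, and the part of width in this difference was not tested.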

How the results depend on the processing

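The number of domains was 792 with a limit of 1000 bp, 5 with 2000 bp and 187 with every sequence, and ranged from 109 to 241 without 1 library, 241 being without Mu_E_2. Summits per interval were 3.173 with 1000 bp, 6.6 with 2000 bp, 4.565 with at least 1 broad interval per library, 4.095 with peaks of a q-value of 1e-05 or less and 4.276 with every sequence, and 4.339 to 4.38 without 1 library. The promoter share was 37.57% with at least 1 broad interval, 33.33% with a promoter of 1 kb, 44.11% with 3 kb, 49.83% with added genes and 43.43% by any touch, and 33.2% to 41.61% without 1 library. Its difference from other shared regions was 12.23 points with at least 1 broad interval, 12.58 with the stricter q-value, 12.95 with 1 kb, 15.43 with 3 kb, 20.84 with added genes, 16.95 by any touch, 10.49 against regions of like fold enrichment and 1.409 against regions of 1 to 1.5 kb, and 10.13 to 16.74 without 1 library. The log2(FPKM + 1) difference was 0.2559 with 2000 bp, 0.8651 with the stricter q-value, 1.302 with added genes and 1.33 with a pseudocount of 0.1. It was 0.7092 for genes of at least 1 FPKM, 1.016 on own fragments and 1.37 for starts within 2 kb. At like fold enrichment it was 0.765, and against 1 to 1.5 kb it was 0.009057. Without 1 RNA-seq library this difference was 1.074 to 1.132, with the domains kept the same. Leaving out an ATAC-seq library was not tried for it. The fold enrichment ratio was 1.537 with 1000 bp, 1.311 with 2000 bp, 1.365 with at least 1 broad interval, 1.235 with the stricter q-value, 1.447 to 1.495 without 1 library, and 0.9522, reversed, against 1 to 1.5 kb. The cause was not tested, beyond what each setting itself changes. The other settings tried moved these values by less than the spread between libraries or, for counts, by less than 1.5 times. No paired analysis was possible because no result came from a test between groups. The depth of the ATAC-seq libraries was not analysed, and intervals, summits and fold enrichment may change with it.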
